A study of Mus musculus with 7 samples.

Results

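Collagen genes were followed across liver, kidney, cortex, skeletal muscle and 3 fat depots, namely visceral (VAT), subcutaneous (SCAT) and interscapular brown (BAT) adipose tissue. All 7 RNA-Seq libraries came from wild-type C57BL/6 mice (C57BL/6N in the study's text) on the diet given as NCD at 36 weeks of age, and the labels name no other treatment. Each tissue had 1 library made from rRNA-depleted RNA with a directional kit, the sources used here do not state whether a library held 1 animal or a pool, and no difference between tissues therefore has a replicate check or a p-value. The members were the gene names of the deposited table made of Col, a number, the letter a and a number. There were 44 such names, and 43 of them, among 21341 protein-coding genes used in all, entered the analysis, 10 fibrillar, 8 of basement membranes and 25 others. The 44th, Col1a2, was left out because the authors' program cuffdiff gave both of its loci the status FAIL in 6 comparisons, all of which involved VAT. Levels are FPKM, fragment counts per length of transcript and per size of library, so that levels of different genes can be compared.

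Collagens are secreted proteins whose chains wind around each other in groups to form a helix, and they make up most of the scaffold outside cells. Fibrillar collagens (types I, II, III, V, XI, XXIV and XXVII) pack into the cables that give tendon, skin and the stroma of organs their tensile strength, and fibroblasts are their main source. Type IV collagens build the sheet-like network of basement membranes beneath epithelia and around vessels, adipocytes, muscle fibres and Schwann cells, and the multiplexins Col15a1 and Col18a1 lie at the border of these sheets. The other members include the beaded filaments of type VI, the fibril-associated collagens (FACIT), the hexagonal networks of type VIII and X, the anchoring fibrils of type VII and collagens held in the plasma membrane.

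The labelled tissues carried their defining genes. Hepatocyte, kidney tubule, neuron, brown adipocyte and skeletal myofibre markers had their highest summed FPKM in liver, kidney, cortex, BAT and muscle, and adipocyte markers summed to 1071 in VAT, 415 in SCAT, 1419 in BAT and at most 49.9 elsewhere. The VAT library also held 4 of 4 epididymal markers (Lcn5, Crisp1, Adam7 and Spinkl) at a summed 2645 FPKM against 1.99 or less in any other library, and hepatocyte markers at 306, of which Alb, with no usable liver value, gave 253. The hepatocyte list also summed to 197 in cortex, of which Ttr gave 195, and to 52.0 in kidney. The SCAT library held 4 of 4 lymphocyte markers at a summed 107 FPKM (3.25 in VAT). It also held markers of acinar pancreas at a summed 91.8 FPKM (6.27 in VAT and 8.77 in kidney). Of these, Cela1 had 11.5 FPKM in SCAT, 8.55 in kidney and 5.99 in liver, and Ctrb1, Cpa1 and Pnlip had at most 1.41 outside SCAT. The BAT library held Tnnt3, a fast muscle troponin in a locus shared with Lsp1, at 3.13% of its muscle level. Ckm, muscle creatine kinase, was there at 1.93% of its muscle level. The table gives no fragment counts, but the commonest ratio between low values of a pair of libraries tells how much 1 fragment was worth in each. By this ratio SCAT was the deepest library, at 2.56 times the depth of kidney, VAT and cortex had 1.99 and 1.98 times, liver 0.939 times, BAT 0.626 times and muscle, whose estimate was the least sharp, 0.389 times. The absolute depth is unknown, so no interval is given for any FPKM, and in bulk tissue fewer cells of a type and less RNA per cell cannot be told apart.

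The type IV genes, which the kidney and fat results below turn on, lie in head-to-head pairs that start transcription in opposite directions. Col4a1 (chromosome 8 of GRCm38, 11198423 to 11312826, minus strand) and Col4a2 (11312805 to 11449287, plus strand) have starts 21 bases apart, so that both transcripts include the same short stretch. Col4a3 (chromosome 1, 82586921 to 82722059, plus strand) and Col4a4 (82448423 to 82586849, minus strand) start 72 bases apart. Col4a5 (chromosome X, 141475385 to 141689234, plus strand) and Col4a6 (141165403 to 141474076, minus strand) start 1309 bases apart. For Col4a1 with Col4a2 and Col4a3 with Col4a4 the stretch that both genes share at or between their starts is shown, and for Col4a5 and Col4a6 the stretch before each start, since these are the sequences where the paired genes begin, from the RefSeq table of build GRCm38.p6, 5′ to 3′, with the GC box GGGCGG and the CCAAT box CCAAT on either strand in capitals.
Shared by the starts of Col4a1 and Col4a2 (chr8:11312805-11312826, plus strand): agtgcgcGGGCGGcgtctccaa
Between Col4a3 and Col4a4 (chr1:82586850-82586920, minus strand): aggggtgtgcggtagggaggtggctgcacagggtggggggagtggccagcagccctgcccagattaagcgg
Before Col4a5 (chrX:141475169-141475384, plus strand): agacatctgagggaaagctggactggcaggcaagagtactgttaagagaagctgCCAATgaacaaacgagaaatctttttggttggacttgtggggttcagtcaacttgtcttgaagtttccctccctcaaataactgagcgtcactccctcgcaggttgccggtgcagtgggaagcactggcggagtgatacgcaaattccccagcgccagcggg
Before Col4a6 (chrX:141474077-141474326, minus strand): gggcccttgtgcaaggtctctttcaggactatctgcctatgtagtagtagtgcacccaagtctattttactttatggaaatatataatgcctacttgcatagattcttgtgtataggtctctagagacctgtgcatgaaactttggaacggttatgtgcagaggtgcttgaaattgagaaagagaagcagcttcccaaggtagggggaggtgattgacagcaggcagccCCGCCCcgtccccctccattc

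In the RefSeq windows of 300 bases around a start, the GC content was 74.0% for Col4a1, 73.7% for Col4a2, 63.3% for Col4a4, 52.7% for Col4a5 and 48.3% for Col4a6, beside a median of 52.7% over 32851 windows. The shared stretch of Col4a1 and Col4a2 holds a GC box. No GC box, CCAAT box or TATA box (TATAAA) was found in the window of Col4a4, which describes these letters only. A GC box was in 23 of the 38 windows of 35 collagen genes (60.5%) and in 35.7% of all windows, a CCAAT box in 13 of the 38 and in 37.4% of all, and a TATA box in 5 of the 38 and in 13.6% of all. The matches are a description of sequence and were not tied to binding by any factor.

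Of the 43 collagens, 36 reached 1 FPKM in any tissue, 16 reached 10 FPKM, and 6 had at least 1 FPKM in all 7 tissues (Col4a1, Col4a2, Col6a1, Col11a2, Col17a1 and Col23a1). All 8 basement membrane collagens, 9 of 10 fibrillar collagens and 19 of 25 others were among the 36. Muscle had the highest FPKM of 12 of the 36, including 5 fibrillar collagens, where 24.0% of the 14928 protein-coding genes with 1 FPKM in any tissue had their highest value. VAT was highest for 8 (5.35% of all genes), cortex for 6 (21.1%), kidney for 4 (10.6%), liver for 3 (15.5%), BAT for 3 (15.1%) and SCAT for 0 (8.37%). These counts rest in part on the authors' scaling: with median ratio scaling muscle was highest for 8, VAT for 11, cortex for 7, kidney for 5, liver for 3, BAT for 1 and SCAT for 1, Col5a2, and Col6a2, Col8a1 and Col17a1 were also no longer highest in muscle. The lowest value was in cortex for 15 of the 36, against 23.1% of all genes, and in liver for 13, against 19.7%, where ties at 0 with another tissue (Col9a2, Col22a1 and Col26a1) were given to liver. The map of log2 FPKM by gene and tissue shows these blocks.

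**Figure D1:**
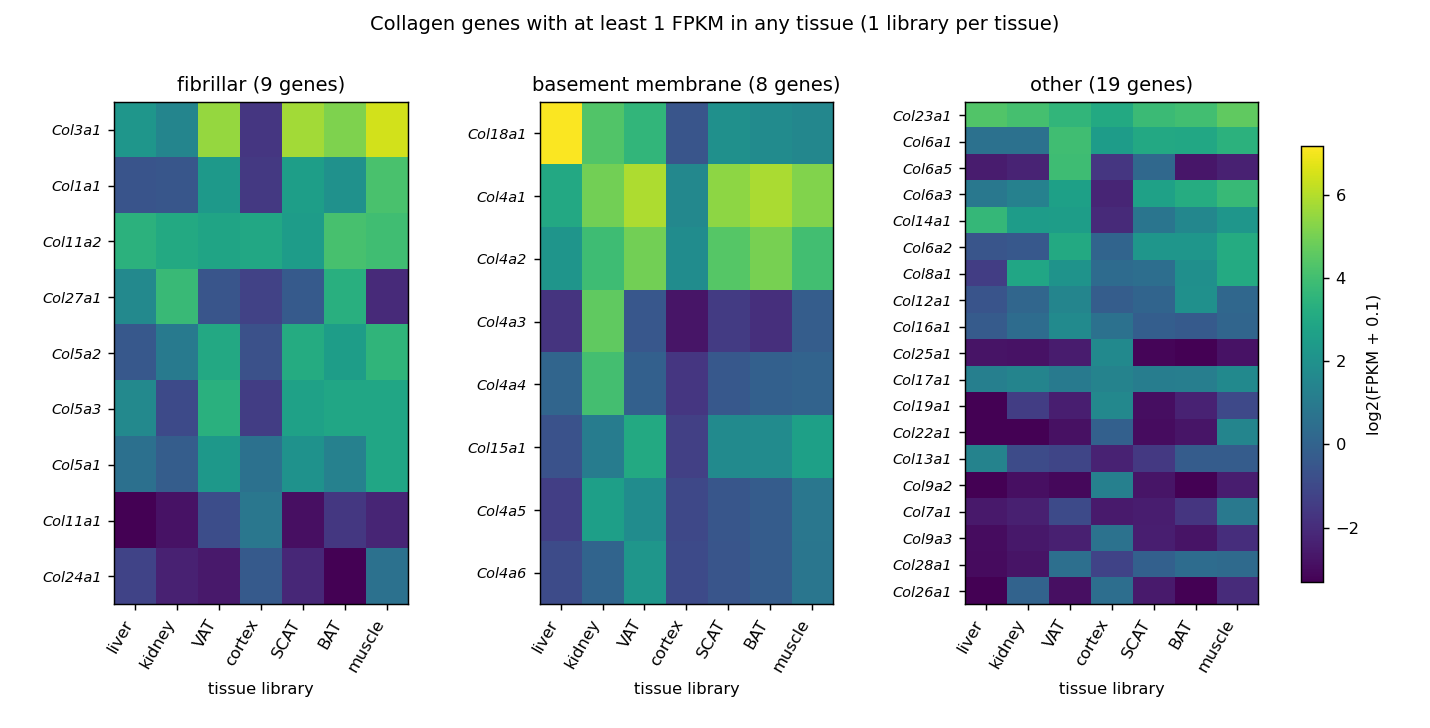
Each column is a tissue library and each row a collagen gene with at least 1 FPKM in any tissue, ordered by its highest FPKM within the fibrillar (9 genes), basement membrane (8) and other (19) groups. Color is log2(FPKM + 0.1). Col3a1 is brightest in muscle, Col18a1 in liver and Col4a1 in VAT and BAT, and Col4a3 and Col4a4 are bright in kidney only.

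Enrichment here means a tissue with 1 FPKM or more in which log2(FPKM + 0.1) exceeded every other tissue by 2 or more, that is 4-fold. Of the 36 collagens, 8 were enriched, close to the 21.4% of all genes. Cortex had 4 of them (8.21% of all genes), Col9a2, Col9a3, Col19a1 and Col25a1. Kidney had 2 (2.49%), Col4a3 and Col4a4, liver had Col18a1 (3.39%) and VAT had Col6a5 (1.21%). Muscle had 0 enriched collagens (3.38% of all genes), and the nearest gene outside the limit was Col7a1, the anchoring fibril collagen, at 1.81 FPKM in muscle and a log2 ratio of 1.91 over VAT. The enriched gene closest to the limit was Col9a3, with a log2 ratio of 2.58.

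Col4a1 and Col4a2, the ubiquitous pair whose products form the classical network of basement membranes, were present in every tissue. Col4a1 had 59.6 FPKM in VAT, 42.0 in SCAT, 57.4 in BAT, 37.2 in muscle, 31.4 in kidney, 8.14 in liver and 2.89 in cortex. Col4a2 had 31.4 FPKM in VAT, 21.1 in SCAT, 32.9 in BAT, 15.9 in muscle, 15.2 in kidney, 4.37 in liver and 3.36 in cortex. The 3 fat depots stood above the other 4 tissues for both genes, and cortex was lowest. In VAT, Col4a1 ranked 381st among the protein-coding genes with 1 FPKM in any tissue. The loci of Col4a1 and Col4a2 have the same bounds, which span both genes, and differ only by the strand read from the order of loci. The part of each gene in the FPKM listed for the other was not tested.

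Col4a3 and Col4a4, which with Col4a5 form the network of the glomerular filter, were kidney genes in these libraries. Col4a3 had 24.4 FPKM in kidney, against 0.770 in muscle, 0.633 in VAT, 0.253 in SCAT, 0.167 in BAT, 0.197 in liver and 0.0504 in cortex. Col4a4 had 16.4 FPKM in kidney, against 0.912 in muscle, 0.843 in VAT, 0.644 in SCAT, 0.832 in BAT, 0.990 in liver and 0.215 in cortex. Kidney was thus the only tissue above 1 FPKM for either, with log2 ratios of 4.82 and 3.92 over the next tissue. By its bounds the merged locus of Col4a3 also spans Mff and that of Col4a4 also spans Irs1, both on the same strand, and the part of these genes in the listed FPKM was not tested.

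Col4a5 was highest in kidney, but its range was wider than that of its partners. It had 6.02 FPKM in kidney, 3.42 in VAT, 1.69 in muscle and at most 0.727 in the other 4 tissues. Col4a6, which pairs with Col4a5 in basement membranes of smooth muscle and some epithelia, had 4.53 FPKM in VAT, 1.67 in muscle, 0.942 in kidney and at most 0.734 in the other 4. Of the summed type IV FPKM, Col4a3 and Col4a4 made up 43.2% in kidney and at most 8.23% elsewhere. Col4a1 and Col4a2 made up 49.4% in kidney and between 85.5% (cortex) and 97.4% (BAT) in the other tissues, and Col4a5 and Col4a6 between 1.57% (BAT) and 10.8% (cortex).

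**Figure D2:**
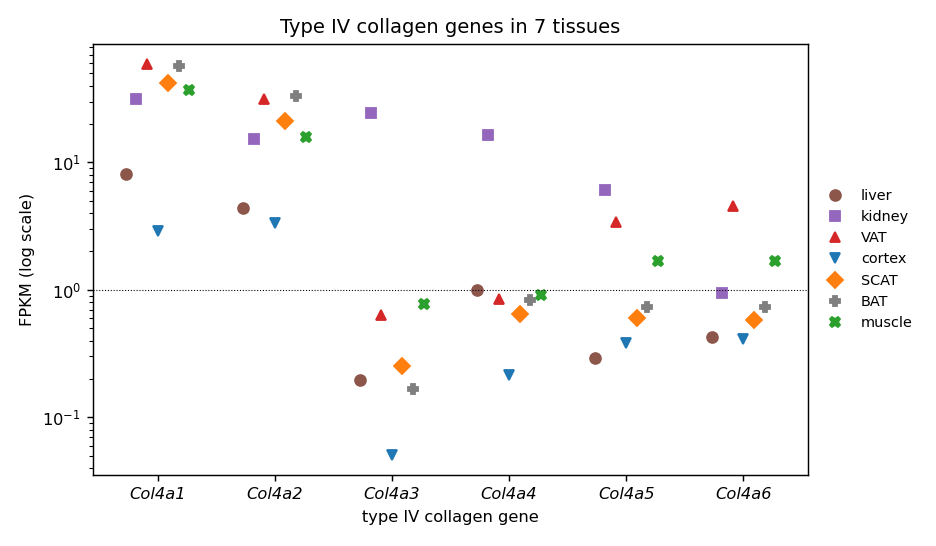
FPKM on a log axis of the 6 type IV collagen genes in each of the 7 tissue libraries, 1 symbol per tissue, with a dotted line at 1 FPKM. Col4a1 and Col4a2 lie between 2.89 and 59.6 in all tissues, Col4a3 and Col4a4 pass 1 FPKM in kidney only, and Col4a6 is highest in VAT.

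Col18a1, a multiplexin of vascular and epithelial basement membranes whose C-terminal fragment is endostatin, had the highest level of any collagen. It had 12.0 FPKM in VAT, 3.84 in SCAT, 3.23 in BAT, 2.84 in muscle, 20.2 in kidney, 141 in liver and 0.592 in cortex. Liver stood 2.80 above kidney on the log2 scale, and Col18a1 (chromosome 10, 77052178 to 77166548, minus strand) alone was 62.7% of all collagen FPKM in liver. It ranked 448th among protein-coding genes in liver. A locus of the same bounds, on the other strand by the order of loci in the table, had 66.5 FPKM in liver and was likewise highest there. Col15a1, the other multiplexin, was spread differently, with 8.33 FPKM in VAT, 6.25 in muscle, 3.24 in BAT, 3.21 in SCAT, 2.07 in kidney, 0.523 in liver and 0.293 in cortex.

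Among fibrillar collagens, Col3a1, the type III chain of compliant tissues such as vessel walls, was the most abundant in muscle and in all 3 fat depots. It had 46.2 FPKM in VAT, 53.7 in SCAT, 35.8 in BAT, 89.8 in muscle, 2.70 in kidney, 4.53 in liver and 0.217 in cortex. Col1a1, the main chain of type I fibrils, had 5.06 FPKM in VAT, 5.86 in SCAT, 3.90 in BAT, 17.9 in muscle, 0.595 in kidney, 0.572 in liver and 0.240 in cortex. Both genes had the same order of tissues from muscle through SCAT, VAT and BAT, and liver and kidney were below all 4. The step from SCAT to muscle was 1.60 on the log2 scale for Col1a1 and 0.74 for Col3a1. Col3a1 in cortex was 0.241% of its muscle level.

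Type V collagens, which regulate the diameter of type I fibrils, were likewise higher in muscle and the fat depots than in liver, kidney and cortex. Col5a2 had 11.6 FPKM in muscle, 8.70 in SCAT, 8.12 in VAT, 5.72 in BAT and at most 1.88 in kidney, liver and cortex. Col5a3 was highest in VAT, at 10.2 FPKM, followed by BAT (7.45), muscle (7.33) and SCAT (6.41), while kidney (0.419) and cortex (0.279) were lowest. Col5a1 had 7.37 FPKM in muscle, 4.83 in VAT, 4.04 in SCAT, 2.40 in BAT, 1.42 in cortex, 1.39 in liver and 0.761 in kidney. The Col5a1 locus used lies on the opposite strand, and on the annotated strand it had 6.49 FPKM in muscle and 1.01 in cortex.

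Col27a1, a fibrillar collagen best known from cartilage, had another pattern than Col1a1, Col3a1 and the type V genes. It had 13.8 FPKM in kidney, 9.93 in BAT, 2.98 in liver, 0.681 in SCAT, 0.581 in VAT, 0.317 in cortex and 0.135 in muscle. The tissue with the highest Col1a1 and Col3a1 was thus the lowest for Col27a1, and BAT stood far above both white depots. The cartilage markers Comp and Acan were at or below 0.639 and 0.0846 FPKM in kidney and BAT. Both loci listed for Col27a1 on the opposite strand were also highest in kidney, and the higher of them held 23.1% to 31.7% of the main locus in the 3 tissues where that passed 1 FPKM.

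The minor fibrillar collagens were low. Col11a1 reached 1.72 FPKM in cortex and 0.455 in VAT, and Col24a1 reached 1.44 in muscle, both on the opposite strand. On the annotated strand their highest values were 0.875 in cortex and 0.336 in kidney. Col2a1, the collagen of cartilage, stayed below 1 FPKM in every tissue, with 0.463 in cortex as its highest value. The FPKM listed for Col11a2, between 5.50 and 17.4, belongs to a locus that also carries the name Rxrb, a nuclear receptor gene, and cannot be assigned to the collagen.

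Type VI collagens form the beaded filaments around muscle fibres and adipocytes. Col6a1 had 15.7 FPKM in VAT, 10.9 in muscle, 8.11 in SCAT, 7.92 in BAT, 5.50 in cortex, 1.42 in kidney and 1.40 in liver. Col6a2 had 8.81 in muscle, 8.26 in VAT, 4.50 in SCAT, 4.47 in BAT and at most 0.959 elsewhere. Col6a3 had 13.5 in muscle, 9.15 in BAT, 6.38 in SCAT, 6.22 in VAT, 2.33 in kidney, 1.74 in liver and 0.116 in cortex. The 3 genes summed to 33.2 FPKM in muscle and 30.2 in VAT, and to 3.73 in liver. In cortex Col6a1 was well above its partners Col6a2 and Col6a3.

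The alternative type VI chains were low, except for Col6a5. Col6a5 (chromosome 9, 105856078 to 105960643, annotated on the minus strand) had 15.3 FPKM in VAT, 1.07 in SCAT and 0.213 or less in the remaining 5, with a log2 ratio of 3.72. Col6a4 and Col6a6 had maxima of 0.371 and 0.541 FPKM. The VAT library also held epididymal genes, Crisp1 (a locus shared with Crisp3) at 1386 FPKM and Lcn5 at 1119. Of the skin epithelial markers, Krt14 (2.58), Krt5 (2.48) and Krt15 (1.53) were highest in VAT, but Dsp was highest in liver (15.6 against 2.24 in VAT). Col6a5 and these markers other than Dsp were thus highest in the same library, and the part of such cells in the Col6a5 level was not tested. The non-collagen genes most like Col6a5, looked up after its values were seen, were Gm15056 and the locus of Crisp1 and Crisp3, each with a Pearson correlation of 0.99 on log2(FPKM + 0.1) over the 7 tissues, a description that rests on the VAT library. The locus used lies on the opposite strand by the order of loci, and the locus on the annotated strand had 5.82 FPKM in VAT and 0.566 in SCAT.

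Fibril-associated collagens (FACIT), which coat fibrils or link them to other molecules, split by tissue. Col14a1 had 12.7 FPKM in liver, 5.73 in VAT, 5.56 in kidney, 4.53 in muscle, 2.85 in BAT, 1.62 in SCAT and 0.137 in cortex. Col12a1 was highest in BAT (3.77) and VAT (2.69), though its locus also spans the mitochondrial gene Cox7a2, Col16a1 in VAT (3.16), and Col22a1, known from muscle-tendon junctions, in muscle (2.66), followed by cortex (0.849). The Col22a1 locus used lies on the opposite strand, and on the annotated strand it had 0.947 FPKM in muscle. Of 4 tendon and cartilage markers, which summed to 5.06 FPKM in muscle and 4.90 in cortex, Tnmd was highest in muscle (3.21), Scx in SCAT (0.549), and Comp (3.34) and Acan (0.131) in cortex.

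Cortex had the lowest collagen sum, yet its enriched collagens came from rarer families. Col25a1, a transmembrane collagen of neurons whose shed form is found in amyloid plaques, had 3.11 FPKM in cortex and no more than 0.0719 outside it, a log2 ratio of 4.22. Col19a1, a fibril-associated collagen also made by interneurons, had 2.89 FPKM in cortex and 0.393 in muscle, the next tissue. Col9a2 and Col9a3, chains of type IX collagen, had 2.30 and 1.45 FPKM in cortex and at most 0.0806 and 0.159 elsewhere, while their partner Col9a1 had 0.0764 in cortex. Col26a1, read from the opposite strand, was highest in cortex (1.29) with kidney next (0.907), and had 0.590 in cortex on the annotated strand. These cortex values were low in absolute terms: with a pseudocount of 1 none of the 4 enriched collagens kept a 4-fold ratio (log2 ratios 1.08 to 1.94), and on the annotated strand Col9a2 had 0.850 FPKM.

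The remaining members were mostly low, shared their locus or were read from the opposite strand. Col8a1, a network collagen of vessel walls, had 8.61 FPKM in muscle, 7.40 in kidney, 4.12 in VAT and 3.73 in BAT, but this locus lies opposite to the annotated strand, where the locus had at most 0.708. Col13a1, a transmembrane collagen, was highest in liver at 2.53 FPKM, on the opposite strand (1.29 on the annotated strand). Col28a1, which is found around Schwann cells of peripheral nerve, had 1.34 in VAT, 1.23 in BAT, 1.15 in muscle, 0.828 in SCAT and at most 0.329 in cortex, kidney and liver, on the opposite strand (0.400 in VAT on the annotated strand). Col17a1 varied only from 1.86 to 3.11 FPKM over all 7 tissues, from a locus that also spans Stn1. Col23a1, at 8.21 to 25.0 FPKM, shares its locus with the name Phykpl, and its level cannot be assigned. Below 1 FPKM everywhere were Col2a1, Col6a4, Col6a6, Col8a2, Col9a1, Col10a1 and Col20a1.

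Summed over the 43 genes, collagen FPKM was 304 in muscle, 282 in VAT, 236 in BAT, 225 in liver, 201 in SCAT, 187 in kidney and 56.0 in cortex. Fibrillar collagens made up 49.9% of the sum in muscle, 42.2% in SCAT, 35.1% in BAT, 29.2% in VAT, 24.5% in cortex, 15.2% in kidney and 10.8% in liver. Basement membrane collagens made up 69.4% in liver, 62.3% in kidney, 42.8% in VAT, 42.1% in BAT, 35.9% in SCAT, 22.1% in muscle and 14.6% in cortex. The share in liver rests on counting the multiplexins here: with Col15a1 and Col18a1 among the others, basement membrane collagens made up 6.41% and the others 82.8%. With loci of 1 gene name only, which leaves out Col11a2 and Col23a1, the fibrillar share was 14.7% in cortex and 6.94% in liver. With the failed loci of Col1a2 kept, the fibrillar share was 57.3% in muscle, 49.5% in SCAT, 39.8% in BAT and 36.3% in VAT. In BAT the fibrillar share then passed the basement membrane share of 39.0%, as it did with FPKM summed over all loci (38.7% against 38.2%). The largest gene in the sum was Col18a1 in liver and Col4a1 in kidney, VAT and BAT, and the summed type IV FPKM was 94.5 in kidney, 100.4 in VAT and 92.8 in BAT. In cortex, Col23a1 and Col11a2 with their shared names led the sum, and without them it was 40.0. When the libraries were scaled by median ratios over all protein-coding genes, which divides FPKM by library factors of -0.43 (SCAT) to 0.27 (muscle) on the log2 scale and so raises SCAT and lowers muscle, the sum became 346 in VAT, 271 in SCAT, 253 in muscle and 205 in BAT, so the place of muscle above VAT and SCAT rests on the authors' scaling. The shares of the groups are not touched by it.

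**Figure D3:**
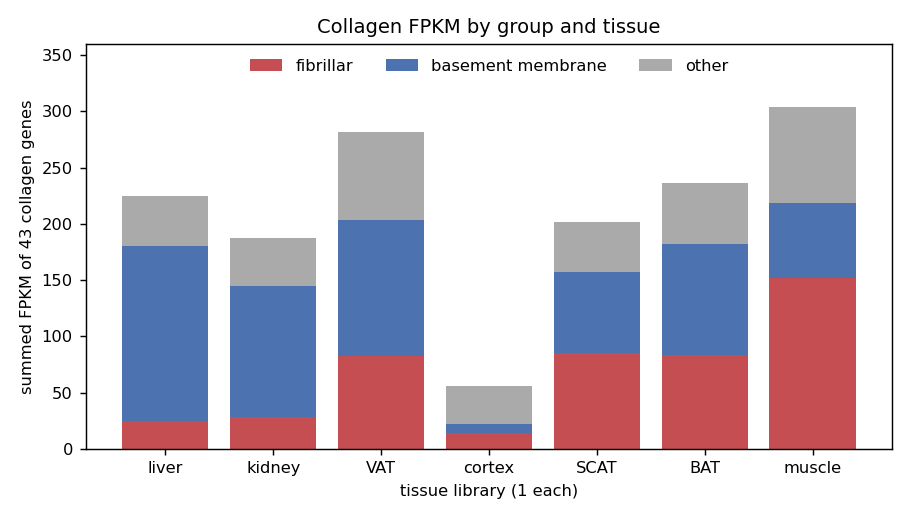
Stacked bars of summed FPKM of the 43 collagen genes in each tissue library, split into fibrillar, basement membrane and other members. The bar of muscle reaches 304 and is 49.9% fibrillar, that of liver reaches 225 and is 69.4% basement membrane, and that of cortex reaches 56.0.

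Chains that assemble together were compared as FPKM ratios within a tissue, only where both had at least 1 FPKM. Col4a2 was 0.428 to 0.573 times Col4a1 in 6 tissues and 1.16 times in cortex, where both were under 5 FPKM. The loci of Col4a1 and Col4a2 have the same bounds, as given above. Col3a1 was 9.12 times Col1a1 in VAT, 9.17 times in SCAT and 9.18 times in BAT, and 5.01 times in muscle. The 3 fat depots thus lay together and muscle apart. Col1a2, with the values of its failed loci and without VAT, was 4.94 times Col1a1 in SCAT, 4.68 times in BAT and 2.98 times in muscle, although type I fibrils hold more of the Col1a1 chain. Col5a2 was 1.57 to 2.39 times Col5a1 in 4 tissues (1.56 to 2.67 on the annotated strand), and Col4a4 was 0.672 times Col4a3 in kidney. Col6a2 was 0.525 to 0.808 times Col6a1 in 4 tissues. Col6a3 was 0.395 times Col6a1 in VAT, 0.786 in SCAT and 1.16 to 1.64 times in BAT, muscle, liver and kidney. With FPKM summed over all loci of a gene, the lowest ratio of Col5a2 to Col5a1 was 0.467 and that of Col6a2 to Col6a1 was 0.209, but these are liver and cortex, where the sums bring both genes past 1 FPKM and the single loci do not. The spread between replicates of such ratios is unknown.

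**Figure D4:**
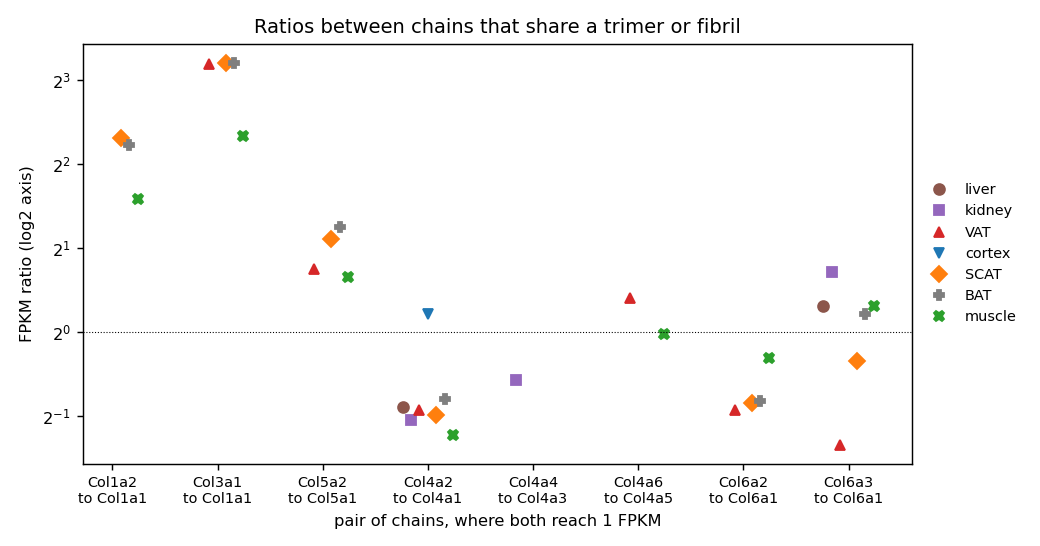
FPKM ratios on a log2 axis for 8 pairs of chains, 1 symbol per tissue, drawn only where both genes have at least 1 FPKM, with a dotted line at 1. Col4a2 lies below Col4a1 in all tissues except cortex, Col3a1 lies 5.01 to 9.18 times above Col1a1, and Col6a3 to Col6a1 is lowest in VAT.

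To see which collagens mark fat as such, genes were counted whose lowest FPKM among VAT, SCAT and BAT was above their highest among liver, kidney, cortex and muscle. Of the 36 collagens, 2 met this, Col4a1 and Col4a2 (3.27% of 14898 genes). The reverse held for 1, Col17a1 (3.58%). The count depended on muscle, and without it 12 of 33 collagens were higher in all 3 depots than in liver, kidney and cortex (6.61% of 14682 genes), among them Col1a1, Col3a1, all 3 type V genes and Col6a1 to Col6a3. With median ratio scaling, Col5a3, Col12a1 and Col28a1 joined Col4a1 and Col4a2, and Col17a1 no longer met the reverse, and without the SCAT library the same 3 genes joined.

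VAT and SCAT, the white depots, were compared at 2-fold on log2(FPKM + 0.1) among genes with at least 1 FPKM in either. Of 23 collagens, 9 were higher in VAT (15.1% of 11963 genes) and 0 were lower (8.62%). VAT was above SCAT by any amount for 17 of 23, where 58.5% of all genes were, and the median difference was 0.67 over the collagens and 0.16 over all genes. The 9 were Col6a5 (3.72), Col4a6 (2.77), Col4a5 (2.32), Col16a1 (1.87), Col14a1 (1.76), Col18a1 (1.61), Col8a1 (1.58), Col12a1 (1.43) and Col15a1 (1.35), and thus none of the main fibrillar chains. Col1a1 (-0.21), Col3a1 (-0.22), Col5a2 (-0.10) and Col6a3 (-0.04) were within 2-fold and slightly lower in VAT. Median ratio scaling raises SCAT more than VAT and left the same 9 genes beyond 2-fold.

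Markers of other cells moved with this comparison. The mesothelial markers summed to 12.3 FPKM in VAT and 0.918 in SCAT, the epididymal markers to 2645 and 1.99, and the skin epithelial markers to 8.83 and 0.0197, and the lymphocyte and acinar markers went the other way. Their part in the 9 differences was not tested. Hepatocyte genes in VAT were at 0.701% (Apoa1), 0.850% (Ttr) and 0.874% (Cps1) of their liver FPKM, and Alb had no usable liver value. Col18a1 in VAT was at 8.48% and Col14a1 at 45.1% of their liver FPKM. The part of liver cells in these VAT values was not tested. Fibroblast markers summed to 67.7 in VAT and 69.5 in SCAT, but Dpt was lower in VAT (29.5 against 50.3) and the other 4, such as Mfap5 (21.6 against 7.91), were higher there. Endothelial markers summed to 50.5 and 50.1.

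**Figure D5:**
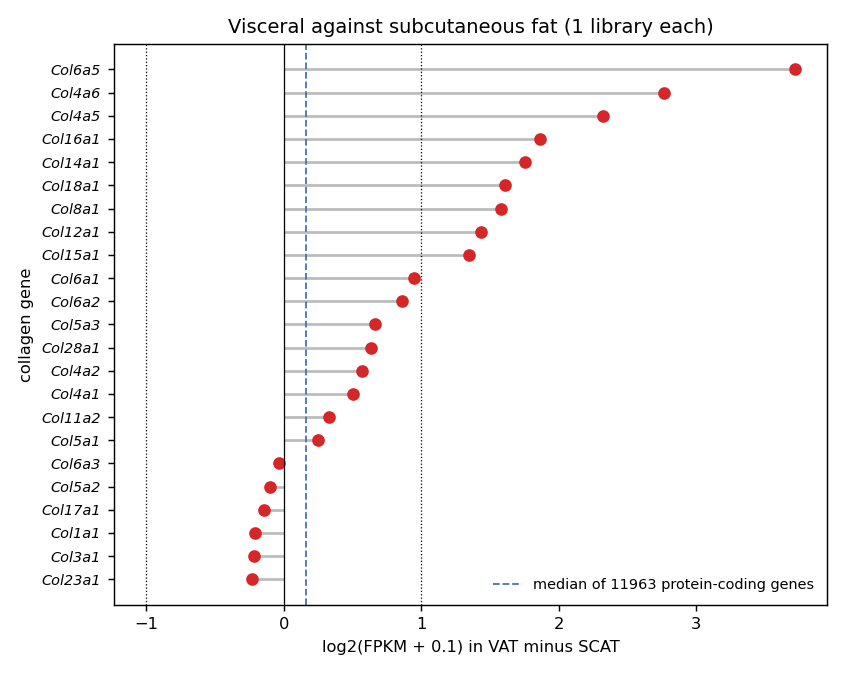
Difference of log2(FPKM + 0.1) between VAT and SCAT for the 23 collagen genes with at least 1 FPKM in either depot. Dotted lines mark 2-fold and the dashed line the median of 11963 protein-coding genes. From Col6a5 (3.72) to Col15a1 (1.35), 9 genes lie beyond 2-fold in VAT, and none does in SCAT.

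BAT was called different from white fat when it was at least 2-fold away from both VAT and SCAT in the same direction. Of 24 collagens with at least 1 FPKM in any of these depots, 2 were higher in BAT, where 25.4% of 12559 genes were, and 1 was lower (5.76%). The higher ones were Col27a1, 3.88 above VAT and 3.68 above SCAT on the log2 scale, and Col11a2, whose locus is shared with Rxrb. The lower one was Col6a5, at 0.0567 FPKM in BAT. The median difference of BAT was -0.41 from VAT and 0.18 from SCAT over the collagens, and 0.47 and 0.58 over all genes. Col3a1 was 0.37 below VAT and 0.58 below SCAT in BAT, while Col4a1 was 0.05 below VAT and 0.45 above SCAT. With median ratio scaling Col11a2 no longer met the rule and Col5a1 became lower in BAT.

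Genes that make, crosslink and remove collagen were taken from 6 lists of 70 genes, of which 63 had at least 1 FPKM in any tissue. By the rule for enrichment 7 of the 63 were enriched in a tissue, against 21.4% of all genes. Muscle was highest for 18 (24.0% of all genes) and VAT for 13 (5.35%). On the log2 scale, the mean of the fat depots was compared with the mean of the other 4 tissues. The median difference was 0.69 over these genes (0.39 with a pseudocount of 1), 0.14 over the 36 collagens and -0.32 over all protein-coding genes. By group it was 0.92 over the 9 fibrillar collagens, 0.40 over the 8 of basement membranes and -0.04 over the 19 others.

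Enzymes and chaperones of collagen synthesis went both ways. Of 17 expressed genes, 7 were highest in liver and 3 in muscle, against 15.5% and 24.0% of all genes, and their median difference of fat from the rest was -0.41, near the -0.32 of all genes. P4hb, a subunit of prolyl 4-hydroxylase that is also a general disulfide isomerase, had 178 FPKM in liver and 3.65 in cortex. Mia3, which loads large cargo such as procollagen into vesicles, had 134 and Ppib, a folding isomerase, 84.0 in liver. P3h2, a prolyl 3-hydroxylase that acts on type IV collagen, was enriched in kidney, at 24.8 FPKM against 1.65 or less elsewhere. The value for P3h3 in cortex (32.8) comes from a locus shared with Gpr162. Serpinh1, the collagen chaperone HSP47, had 33.7 FPKM in BAT, 15.2 in VAT and 0.922 to 8.58 in the others, and was singled out after its values were seen.

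Of 8 expressed genes for processing and crosslinking, Bmp1, the procollagen C-proteinase, was enriched in liver (28.8 FPKM) and Adamts3, a procollagen N-proteinase, in cortex (3.50). Lox, the lysyl oxidase that crosslinks fibrils, had 34.3 in SCAT, 26.6 in VAT, 17.7 in muscle, 13.3 in BAT and at most 1.37 in kidney, liver and cortex, and so separated the same tissues as Col1a1 and Col3a1. The 59.4 FPKM listed for Loxl3 in liver belong to a locus shared with Aup1 and Dqx1.

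Among the 9 partners of fibrils, Dcn, the proteoglycan decorin, had 341 FPKM in VAT, 260 in muscle and 198 in SCAT, and Sparc, a collagen-binding glycoprotein, 219 in VAT and 119 in SCAT. Fn1, fibronectin, was enriched in liver, at 199 FPKM against 22.4 in muscle, and Thbs1, thrombospondin, in VAT, at 34.2 against 7.53 in SCAT. The median difference of fat from the rest in this list was 1.64. Of the 11 partners in basement membranes 0 were enriched, while 21.4% of all genes were. Lamb2, a laminin chain, had 65.9 FPKM in muscle, from a locus shared with Usp19, Nid1, which links laminin to type IV collagen, 35.1 in VAT, and Lama2, the laminin chain of muscle, 17.4 in muscle.

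Of 11 expressed genes of collagen turnover, Timp3, an inhibitor of metalloproteinases bound to matrix, was enriched in kidney, at 51.2 FPKM against 6.00 in VAT. Timp2 and Timp4, of the same family, were highest in VAT (39.8 and 29.3). Mmp2, a gelatinase, had 16.8 in muscle, 11.7 in SCAT, 6.98 in VAT and 4.49 in BAT, and was, like Ddr1, singled out after its values were seen. Among 7 receptor genes, of which Itga1 and Itga2 are 1 shared locus, 0 were enriched, against 21.4% of all genes. Itgb1, the beta chain of all collagen-binding integrins, had 118 FPKM in muscle, the locus of Itga1 and Itga2 was highest in kidney (25.3), and Ddr1, a collagen-activated kinase of epithelia, had 16.3 in kidney.

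The non-collagen genes whose pattern was most like that of a collagen were ranked by Pearson correlation of log2(FPKM + 0.1) over the 7 tissues, with no test. For Col1a1 these were Lamc1, a laminin chain (0.99), Fbn1, fibrillin (0.98), and Gm9913 (0.98), and its nearest collagens were Col5a2 (0.96) and Col3a1 (0.95). For Col4a1 they were Capg (0.98), the endothelial receptor gene Acvrl1 (0.98) and Wwtr1 (0.98), and its nearest collagen was Col4a2 (0.97). For Col4a3 they were P3h2 (0.99), Bmp4 (0.99) and Chst7 (0.99), all highest in kidney, and its nearest collagens were Col4a4 (0.96) and Col4a5 (0.86). For Col18a1, looked up after its values were seen, they were Tfpi2, Cldn1 and Avpr1a (each 0.99), which had 34.2, 58.0 and 7.18 FPKM in liver.

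The groups also differ in the build of their genes, which the choice of members did not use. In the GENCODE annotation of GRCm38, the 11 fibrillar genes have 51 to 67 coding exons, and a median of 46.3% of these are exactly 54 bases long, a multiple of the 9 bases that encode the collagen repeat Gly-X-Y. In the 6 type IV genes this share is 4.05%, and in the 25 other members 8.11%. Exons whose length is a multiple of 9 bases make up a median of 83.3% in fibrillar genes, 45.6% in type IV genes and 54.3% in the others. Col27a1 has the fibrillar build, with 54.1% of 61 exons at 54 bases. Col9a2, Col9a3 and Col22a1, fibril-associated collagens of cortex and muscle, have 43.8%, 43.8% and 44.4%, and the other 6 fibril-associated members have 6.15% (Col12a1) to 36.8% (Col9a1).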

How the data were processed

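Total RNA from 7 tissues was depleted of rRNA and sequenced as paired ends from directional libraries, 1 per tissue. Per the submitters' notes, the authors removed rRNA reads with Bowtie2 2.2.9, aligned to GRCm38 with STAR 2.6.0c, and assembled and compared transcripts with Cufflinks 2.2.1. The deposited table lists FPKM values of 94339 loci for 21 pairs of tissues, as cuffdiff scaled them, with the scaling and strand settings not given in the sources used here. Its fold change, test statistic, p-value and q-value columns are the authors' own comparisons and were not used. Absolute depth is unknown.

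Loci with status FAIL were dropped, and of several loci with a gene's name the one with the highest FPKM was used, as 1 value per gene. The table has no strand column. Strand was read from the order of loci, and 75.3% of 61996 pairs of locus and name lay on the annotated strand. Because the highest locus was used whatever its strand, 11 of the 43 collagen loci are on the opposite strand. Logarithms were taken of FPKM + 0.1, with a minimum of 1 FPKM in any tissue. With 1 library per tissue, counts past a fold (4-fold for enrichment, 2-fold between depots) stand in place of tests. Members and lists were chosen with earlier results of these data known. Collagens were named freely, companion genes where enriched or among the 3 highest of their list, and pattern-like genes as the 3 most correlated. Other pseudocounts, minima, folds, scalings and locus choices and left-out libraries were tried. The rules for enrichment and for differences between depots and the median ratio scaling were checked on simulated data, and the other steps were not. Python 3.11.15, pandas 2.3.3, NumPy 2.4.6 and matplotlib 3.10.9 were used. Some marker genes are not reported here.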

Additional observations from a re-analysis of the deposited data

Results flagged for a closer look

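Col1a2, the second chain of type I collagen, carried signal although its loci were left out for their FAIL status. The listed FPKM was 53.5 in muscle, 31.3 in VAT, 28.9 in SCAT, 18.2 in BAT, 6.27 in kidney, 2.89 in liver and 0.740 in cortex. It was singled out because it lies outside the values used in the comparisons, and the VAT value belongs to the comparisons that failed.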

How the results depend on the processing

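No paired analysis was possible because each tissue has 1 library. Of the 8 enriched collagens, 4 were left with a pseudocount of 1, 4 with a minimum of 5 FPKM and 5 at 8-fold, and 16 were counted at 2-fold. The 2 collagens higher in all fat depots became 5 with median ratio scaling, 5 with upper quartile scaling, 5 without SCAT and 12 without muscle. The 1 lower in all depots became 0 with either scaling or a minimum of 5 FPKM, and 2 with no minimum, with summed loci, without SCAT or without VAT. Of the 9 higher in VAT than SCAT, 4 were left with a minimum of 5 FPKM and 3 at 4-fold, and the 0 lower became 1, Col6a4, with no minimum. The 2 higher in BAT than in white fat became 1 with either scaling, with loci of 1 name only and at 4-fold, and the 1 lower became 0 with a pseudocount of 1, 2 with median ratio scaling and 3 with upper quartile scaling. The highest ratio of Col4a2 to Col4a1 was 1.16, and 0.573 with a minimum of 5 FPKM, which leaves cortex out. The causes of changes by scaling were not tested. On the annotated strand only, 7 collagens were enriched (Col9a2 was lost) and 8 were higher in VAT than SCAT (Col8a1 was lost). With median ratio scaling the order of the collagen sums changed, from muscle (304), VAT (282), BAT (236) and SCAT (201) to VAT (346), SCAT (271), muscle (253) and BAT (205). With FPKM summed over all loci, the lowest and highest ratios of Col4a6 to Col4a5 went from 0.987 and 1.33 to 0.274 and 2.38, and with Col15a1 and Col18a1 among the others, these made up 34.3% in kidney. Without fragment counts, values near 1 FPKM have unknown counting error. With median ratio scaling the collagens highest in BAT went from 3 to 1, in SCAT from 0 to 1 and in muscle from 12 to 8, an alternative chosen after seeing the data.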

Other observations

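Of the 43 collagens used, 22 had loci on both strands. The locus on the annotated strand was the higher in 11 and the opposite one in 11, and in 21 of the 22 both were highest in the same tissue. The exception was Col24a1, highest in kidney on the annotated strand and in muscle on the opposite one. Where the annotated locus was the higher, the higher opposite locus held 11.4% to 96.4% of its FPKM in tissues where the annotated locus had at least 1 FPKM. With a directional kit but an unknown strand setting, reads of a gene and of an antisense transcript cannot be told apart here.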
